A study of Saccharomyces cerevisiae with 4 samples.

Results

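Small RNA of Saccharomyces cerevisiae, the budding yeast, was compared between a strain that carried both genetic changes of the study and its wild type. The strain with both changes, called xrn1 RNAi below, lacked XRN1 (xrn1-delta) and carried DCR1 and AGO1, and the wild type is called WT. These were 2 of the 4 libraries of the series, with 1 library per genotype, and all 5798 gene identifiers of the deposited table were used. The other 2 libraries were from a strain with DCR1 and AGO1 and intact XRN1 (RNAi) and from a strain that only lacked XRN1 (xrn1), and their values are given beside the comparison. The labels name the strains YAM1730 (WT), YAM1725 (RNAi), YAM2271 (xrn1) and YAM1982 (xrn1 RNAi), and give for them no growth condition, mating type or selection marker. How DCR1 and AGO1 are expressed, and how many transformants stand behind a strain, was not given in the sources used here.

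Budding yeast has lost RNA interference. In RNA interference, long double-stranded RNA is diced into short pieces by Dicer, and Argonaute holds the pieces and cuts RNAs that pair with them. DCR1 encodes a Dicer and AGO1 an Argonaute, and adding both rebuilds the pathway in budding yeast. Xrn1 is the main cytoplasmic exonuclease that degrades RNA from its 5′ end, and its substrates include messenger RNA fragments after decapping and many noncoding RNAs, antisense ones among them. The series title gives as the purpose the mapping of double-stranded RNA. Pairs of neighbouring genes whose 3′ ends face each other can be transcribed across one another, which is a known way for double-stranded RNA to arise.

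In the R64 annotation, 16 pairs of listed genes face each other with their coding ends overlapping, and in 7 of the 13 pairs with both genes counted the overlap was 35 bases or shorter. In 6 of these 7 pairs both genes stood 2-fold or more higher in xrn1 RNAi than in WT. The limit of 35 bases was chosen after the values were seen, and in the 6 longer overlaps 0 pairs had both genes higher. Of 620 facing pairs at most 200 bases apart or overlapping, 8.87% had both genes higher. The shared bases are shown for the 6 pairs whose overlap fits a stretch of 30 bases: the first 5 are pairs with both genes higher and the last is the pair without. VPS38 and DCR2, which share 35 bases and were both higher, are not shown. Each line gives the plus strand of R64 from 5′ to 3′, and the capitals mark the coding bases that both genes share.
SMD1 and PRP38, chrVII:636135-636164: ccaagaagaggtCTATGAttcgctgctggt
NKP2 and TAD3, chrXII:765253-765282: tattagaggaaaaCTAGcagcagacatccc
YML096W and RAD10, chrXIII:81469-81498: aataggaattgtTCATAAattcaaatattc
VPS75 and CWC25, chrXIV:186333-186362: agaaaaggaaagtTTAGtagtctaggtccg
CTF19 and IRC15, chrXVI:518733-518762: cCTATTCCCGGACATGTACGCCAGGTGAtg
ATG29 and SET6, chrXVI:237953-237982: gcgCTAATGGACAGATTGCAATTCTGAttt
The treatment of strand in the deposited table was not given in the sources used here. The strand of the reads, and the gene of a read within the shared bases, therefore cannot be told.

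The listed genes held 627607, 1801407, 2825322 and 7686801 reads in WT, RNAi, xrn1 and xrn1 RNAi. On the deposited scale 1 read counted 1, 0.318, 0.330 and 0.0762 in WT, RNAi, xrn1 and xrn1 RNAi, so a low value in xrn1 RNAi rests on more reads than the same value in WT. All values below are on that scale and are not divided by gene length unless said so. Intervals are 95% intervals of counting error alone (exact Clopper-Pearson for ratios and shares, exact Poisson for single values). They take each read as independent, and reads were not marked as separate molecules, so the intervals can be too narrow. Each genotype has a single library, so differences have no replicate check, no p-value is given for a gene, and higher and lower describe a difference between libraries. A gene is called higher or lower where log2(value + 3.18) differed by 1 or more, which is 2-fold, and it was counted where WT or xrn1 RNAi reached 3.18.

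XRN1 (YGL173C, R64 chromosome VII, 175527 to 180113, minus strand), the deleted gene, had 148 reads in WT (interval 125 to 174) and 0 reads in xrn1 RNAi. A count of 0 allows up to 3 reads, a value of 0.229, so the level in xrn1 RNAi was at least 647-fold lower. The xrn1 library had 3 reads at the gene, a value of 0.991. The RNAi library, whose genotype keeps the gene, had a value of 12.4, which was 11.9-fold below WT.

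Across all identifiers, 1128 of 5501 counted were 2-fold or more higher in xrn1 RNAi than in WT (20.5%) and 2818 were lower (51.2%). Among the 5478 counted nuclear genes the median log2 difference was -1.05, and 33.3% of them had any higher value. Differences were wide: 127 nuclear genes (2.32%) were 16-fold or more higher by this measure, 206 (3.76%) were as far lower, and 1555 (28.4%) stayed within 2-fold. The split depends on how libraries are scaled. With size factors, which raise xrn1 RNAi relative to WT by a log2 of 1.15, 1867 identifiers were higher (33.8%) and 1775 lower (32.1%) of 5524, and the nuclear median was -0.07; among nuclear genes alone 33.9% were higher and 31.8% lower. At 4-fold, 11.1% of identifiers were higher and 29.7% lower on the deposited scale. A count test over all 4 libraries (edgeR quasi-likelihood, adjusted p under 0.05) called 12.5% higher and 8.23% lower; it assumes that the effects of both changes add up and takes its spread from 1 residual degree of freedom, so it does not replace replicates. The count test also normalized the libraries anew from their reads, so its shares are not on the deposited scale. In the libraries with a single change, RNAi over WT had 15.3% of counted nuclear genes higher and 60.1% lower, and xrn1 over WT had 33.3% higher and 9.9% lower, all against the same WT library.

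**Figure D1:**
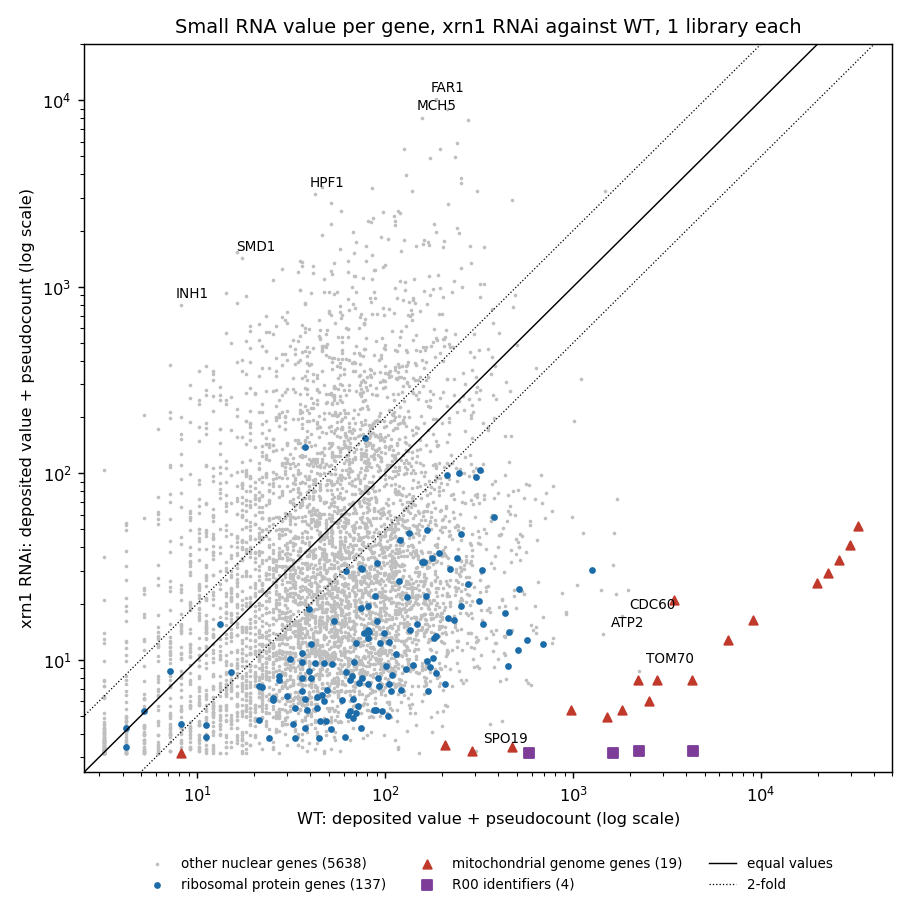
Deposited value plus 3.18 of each identifier in WT (horizontal) and xrn1 RNAi (vertical), both on log scales, 1 point per identifier. The 19 genes of the mitochondrial genome and 4 R00 identifiers lie below the line of equal values. The log2 differences of the mitochondrial genes have a median of -8.48 and a highest value of -1.36. Most ribosomal protein genes also lie below the line, and FAR1 and MCH5 are near the top.

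The 12 nuclear genes with the highest differences encode proteins of varied roles. In all 12 xrn1 RNAi had the highest value of the 4 libraries and WT the lowest. The genes were chosen by the difference between xrn1 RNAi and WT, which favours that order. They were 52.3-fold to 158-fold higher than in WT. INH1 (YDL181W, chromosome IV, 135179 to 135436), which encodes an inhibitor of the mitochondrial ATP synthase, had values of 5, 33.7, 110 and 790 in WT, RNAi, xrn1 and xrn1 RNAi. Its ratio of xrn1 RNAi to WT was 158 (interval 67.7 to 487), wide because WT had only 5 reads. SMD1 (YGR074W, chromosome VII, 635712 to 636152), a gene for a core protein of spliceosomal particles, had values of 14, 67.0, 123 and 1414 in the same order, a ratio of 101 (60.2 to 185). Its overlapping neighbour PRP38 (YGR075C), which encodes another splicing protein, had 13, 22.9, 86.9 and 812, a ratio of 62.5 (36.5 to 117). Both genes thus showed xrn1 above RNAi and the combined strain far above either.

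HPF1 (YOL155C, chromosome XV, 28703 to 31606), a cell wall mannoprotein gene, had 39, 1906, 231 and 3131 in WT, RNAi, xrn1 and xrn1 RNAi, a ratio of 80.3 (58.7 to 113). MCH5 (YOR306C), the riboflavin transporter gene, had 154, 6462, 843 and 8057 (52.3, interval 44.7 to 61.7). FAR1 (YJL157C, chromosome X, 123836 to 126328), which encodes an inhibitor of the cyclin-dependent kinase in the mating response, had 183, 5624, 916 and 10138 (55.4, interval 47.9 to 64.4). At these 3 genes the RNAi library already stood far above WT. ARO10 (YDR380W), the phenylpyruvate decarboxylase gene, had instead 43, 256, 449 and 3404, with xrn1 above RNAi and a ratio of 79.2 (58.8 to 109). RPB4, for a subunit of RNA polymerase II, had 48, 715, 360 and 2799, and RPC25, for a subunit of RNA polymerase III, had 15, 82.6, 125 and 884. Among the 12 genes RNAi was above xrn1 in 7 and below it in 5, and 7 had fewer than 20 reads in WT. The others were YPL162C and YKL068W-A, which the annotation leaves uncharacterized, and NGK1, annotated as a hexokinase, with ratios of 117, 94.1 and 83.4.

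The 12 nuclear identifiers with the lowest differences lay 84.5-fold to 3962-fold below WT. TOM70 (YNL121C, chromosome XIV, 398684 to 400537), which encodes an import receptor of the mitochondrial outer membrane, had 2233, 25.4, 909 and 5.56 in WT, RNAi, xrn1 and xrn1 RNAi, 401-fold lower (interval 318 to 514). CDC60 (YPL160W), the leucyl-tRNA synthetase gene, had 1812, 29.2, 1159 and 13.9, 130-fold lower (112 to 152). ATP2 (YJR121W), for the beta subunit of the mitochondrial ATP synthase, had 1446, 10.2, 1225 and 10.5, 137-fold lower (115 to 165). In these 3 genes xrn1 was within 2.46-fold of WT, and both libraries with DCR1 and AGO1 were low. SPO19 (YPL130W), a spore formation gene, differed from them: it had 302 in WT, 5.08 in RNAi and 8.59 in xrn1, and 1 read in xrn1 RNAi (0.0762), a ratio of 3962 with a counting interval of 706 to 157006.

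The lysine synthesis gene LYS12 had 593 in WT and 4.12 in xrn1 RNAi, 144-fold lower. NOP58, for a core protein of box C/D small nucleolar particles, had 574 and 4.34, 132-fold lower, and MIS1, a mitochondrial folate enzyme gene, had 1693 and 19.4, 87.1-fold lower. The remaining identifiers of the 12 were AIM9 (259-fold), YNL042W-B (272-fold), YOR072W-B (120-fold), YHM2 (84.5-fold) and YOL013W-A (95.5-fold), the last of which the annotation used here does not match. In all 12, xrn1 was above RNAi. The median nuclear value was also higher in xrn1 (70.7) than in RNAi (11.1), and how many of all genes had that order was not counted. In 11 of the 12, WT was the highest of the 4 libraries, and in 11, xrn1 RNAi was the lowest. These genes had at least 302 reads in WT, and the genes at the other extreme had 4 to 183. Both sets were picked by the difference between xrn1 RNAi and WT. That choice favours high WT values here, low ones there, and the places of WT and xrn1 RNAi in the order.

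**Figure D2:**
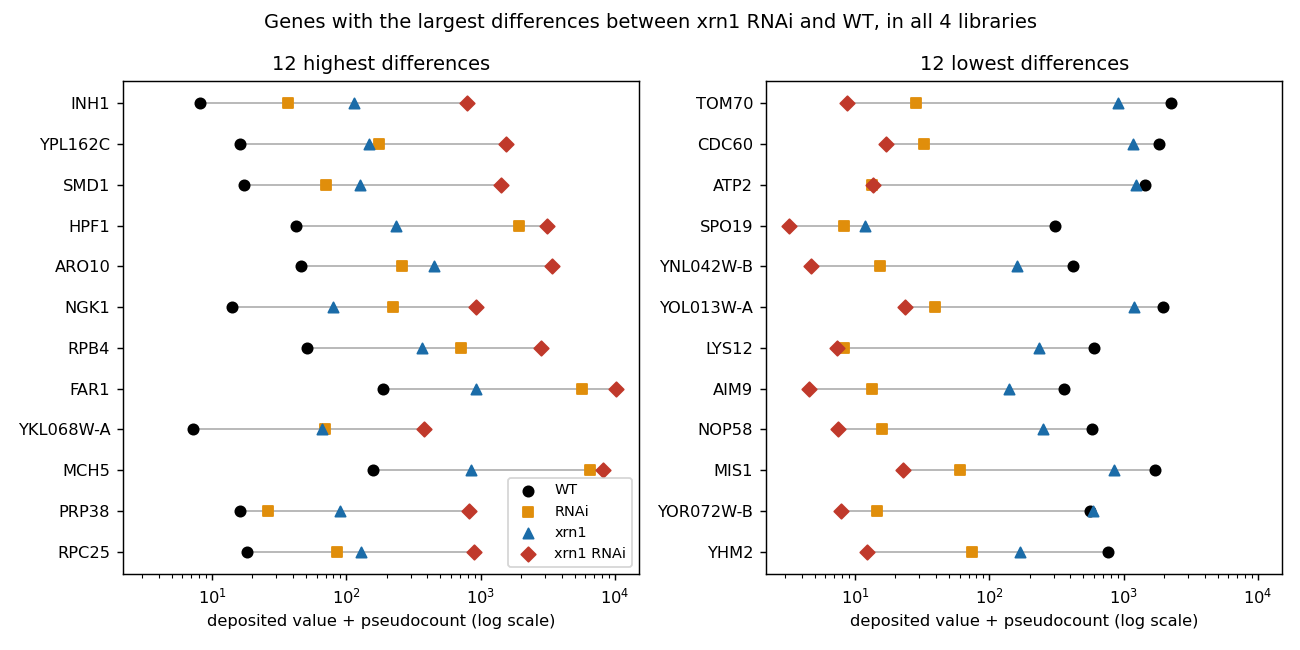
Deposited value plus 3.18 (log scale) in each of the 4 libraries for the 12 nuclear genes with the highest and the 12 with the lowest differences between xrn1 RNAi and WT, 1 point per library. In the left panel xrn1 RNAi is the highest and WT the lowest point in every line, an order favoured by the choice of genes. In the right panel xrn1 is above RNAi in every line, and the median value of all nuclear genes is also higher in xrn1 (70.7) than in RNAi (11.1).

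At the middle of the range, TPM1, a tropomyosin gene, had 56, 55.9, 172 and 56.0 in WT, RNAi, xrn1 and xrn1 RNAi. PHO89, a phosphate transporter gene, had 48, 49.2, 73.0 and 48.1. ATS1 had 57, 269, 77.0 and 57.2, so equal values in WT and xrn1 RNAi went with a higher value in RNAi. The interval of the TPM1 ratio was 0.762 to 1.34.

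Per kb of coding length, the highest nuclear levels in xrn1 RNAi were those of TRP1, a tryptophan synthesis gene, at 8077 per kb against 182 in WT, and of the ammonium permease gene MEP3, at 6106 per kb against 143. They were followed by MCH5 (5145 per kb against 98.3), the alcohol dehydrogenase gene ADH1 (4716 against 221), the amino acid permease gene TAT1 (4207 against 146), RPB4 (4203 against 72.1), FAR1 (4067 against 73.4) and the vacuolar aminopeptidase gene APE1 (3804 against 154). The highest per kb in WT were other genes: YOR072W-B (3451 per kb, against 28.7 in xrn1 RNAi), the ribosomal protein gene RPS22B (3188 against 69.2), and HAC1 (2370 against 96.6), which encodes the transcription factor of the unfolded protein response. RPL39, ASC1, YNL042W-B, QCR9 and RPS10A completed the 8, and QCR9, a respiratory chain gene, kept the most in xrn1 RNAi (1602 per kb in WT and 496 in xrn1 RNAi). No gene was among the highest 8 in both libraries.

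Reads were concentrated on fewer nuclear genes in xrn1 RNAi. There, 203 genes held 50% of the nuclear reads, against 855 in WT, 137 in RNAi and 918 in xrn1. The 100 genes with the most reads held 37.6% of nuclear reads in xrn1 RNAi and 15.3% in WT, with 44.4% in RNAi and 17.3% in xrn1. A value of 1000 or more was reached by 91 nuclear genes in xrn1 RNAi and by 15 in WT, while the median value was 19.2 in xrn1 RNAi and 48 in WT. Counted per kb of coding length, the numbers of genes for 50% were 231 in xrn1 RNAi and 814 in WT.

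**Figure D3:**
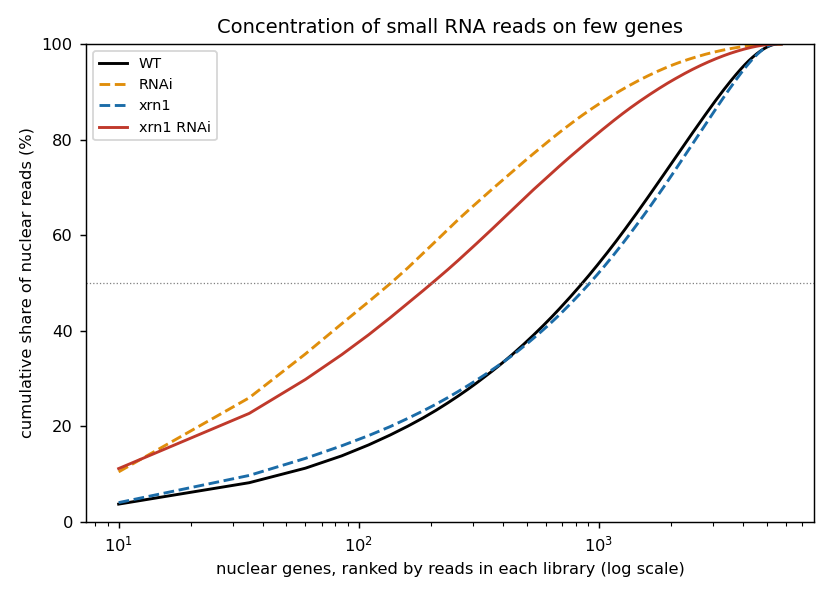
Cumulative share of nuclear reads (percent) against the number of nuclear genes, ranked by reads within each library (log scale), 1 line per library. The lines of xrn1 RNAi and RNAi reach 50% at 203 and 137 genes, and those of WT and xrn1 at 855 and 918.

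Genes of the mitochondrial genome, which encode core subunits of the respiratory chain and of the ATP synthase, were nearly emptied of reads in the combined strain. They took 26.7% of reads in WT (interval 26.6 to 26.8%) and 0.0394% in xrn1 RNAi (0.0380 to 0.0408%), with 0.361% in RNAi and 33.1% in xrn1. All 19 were 2-fold or more lower in xrn1 RNAi than in WT, also with size factors, against 51.2% of all counted identifiers. COX1, the gene of the largest cytochrome oxidase subunit, had 32851, 407, 63612 and 49.2 in WT, RNAi, xrn1 and xrn1 RNAi, 667-fold below WT (617 to 722). COB, the cytochrome b gene, had 6703, 88.3, 10966 and 9.53, 704-fold below WT (589 to 847). OLI1, for a membrane subunit of the ATP synthase, had 3440, 68.0, 6766 and 17.6, 195-fold below (171 to 224). In all 3, xrn1 was above WT, and the low values were in both libraries with DCR1 and AGO1.

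COX2 had 2208 in WT and 4.65 in xrn1 RNAi, COX3 had 2800 and 4.65, and ATP6 had 469 reads in WT and 3 in xrn1 RNAi. VAR1, a mitochondrially encoded ribosomal protein gene, had 204 and 4 reads, and ATP8 had 5 reads and 0, so that little can be said of it. Introns listed as genes lie within COX1 and COB and share their reads; without the 10 nested features the share was 9.83% in WT and 0.0150% in xrn1 RNAi. Identifiers that start with R00, the naming of the yeast plasmid genes, were lower still. R0010W had 4351 reads in WT and 1 in xrn1 RNAi, R0020C had 2231 and 1, R0030W had 577 and 0, and R0040C had 1620 and 0. In xrn1 the 4 had values of 73.7, 698, 423 and 1950, and RNAi had 1 read over all of them. Whether the strains with DCR1 and AGO1 carry mitochondrial DNA or the plasmid was not given in the sources used here and was not tested.

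Nuclear gene groups are described by how many counted members were higher or lower, against 20.6% higher and 51% lower over all counted nuclear genes, and by the median of the group minus the nuclear median of -1.05 (the relative median). These groups were described, not tested. The interval of a relative median is a 95% order-statistic interval over the members of the group, which are not replicates. Near-identical copies, as among ribosomal protein, hexose transporter, flocculin and histone genes, have uncertain values, because a read can fit several copies.

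Groups of the translation machinery had medians below that of all nuclear genes. Of 134 counted ribosomal protein genes, 128 were lower and 1 higher, and their relative median was -1.79 (interval over members -2.08 to -1.55). With size factors, 106 of 135 were lower and 4 higher. RPS31, which encodes a ribosomal protein fused to ubiquitin, had 685, 11.1, 1423 and 8.99 in WT, RNAi, xrn1 and xrn1 RNAi, 76.2-fold below WT. RPL21A had 449, 10.2, 374 and 6.02, 74.6-fold below, and RPL23A, nearest the group's median, had 43, 2.86, 89.9 and 3.28. Low values in both libraries with DCR1 and AGO1, with xrn1 near or above WT, were common to these genes. The exception was RPL22B, with 34, 12.7, 471 and 134 in WT, RNAi, xrn1 and xrn1 RNAi, which was singled out after its values were seen. Together the group took 3.83% of nuclear reads in WT and 0.343% in xrn1 RNAi, with 0.227% in RNAi and 8.79% in xrn1.

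Of 18 counted tRNA synthetase genes, 14 were lower and 0 higher, with the lowest relative median of the 43 groups, -2.04. Besides CDC60, the isoleucyl enzyme gene ILS1 had 634 in WT and 11.7 in xrn1 RNAi, and the glycyl enzyme gene GRS1 had 267 and 4.65. Of 34 translation factor genes, 27 were lower and 2 higher (-0.92). CDC33, which encodes the cap-binding protein, had 47, 0.953, 349 and 1.14 in WT, RNAi, xrn1 and xrn1 RNAi, and SUP35, for a termination factor, had 95, 3.18, 233 and 6.48. Of 55 ribosome assembly genes, 42 were lower and 3 higher (-0.82), among them RRP5 (385 in WT, 9.07 in xrn1 RNAi) and UTP22 (217 and 5.79). Mitochondrial ribosomal protein genes of the nuclear genome were closer to the background, with 44 of 68 lower and 12 higher (-0.40), and MRPS35 was the lowest at 173 in WT and 1.75 in xrn1 RNAi.

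Groups of biosynthesis and protein care differed, and of those in the next sentences the interval of the relative median excluded 0 for amino acid synthesis alone. Of 44 genes of amino acid synthesis, 30 were lower and 5 higher (relative median -0.96, interval -1.33 to -0.32). The branched-chain genes ILV3 (1404, 17.1, 1226 and 20.4 in WT, RNAi, xrn1 and xrn1 RNAi) and BAT1 (773, 5.40, 469 and 9.91) and the methionine synthase gene MET6 (1634, 39.7, 614 and 28.9) were the farthest. Of 26 heat shock and chaperone genes, 19 were lower and 6 higher (-0.43, interval -1.94 to 0.01). SSC1, the mitochondrial Hsp70 gene, had 909 in WT and 14.9 in xrn1 RNAi, 61.2-fold lower, and KAR2, the Hsp70 gene of the endoplasmic reticulum, had 472 and 11.2. Of 34 proteasome genes, 21 were lower and 1 higher (-0.62, interval -1.17 to 0.62), and of 15 vacuolar ATPase genes, 9 were lower and 3 higher (-0.96, interval -1.97 to 1.61). The tryptophan synthesis group had 4 of 10 lower and 1 higher and a relative median of 0.14 (-2.10 to 1.62).

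Genes of central carbon metabolism split. Of 17 glycolysis genes, 9 were lower and 0 higher, with a median near that of all nuclear genes (-0.07); the aldolase gene FBA1 had 480, 13, 1882 and 20.4 in WT, RNAi, xrn1 and xrn1 RNAi. Of 12 fermentation genes, 4 were higher and 6 lower. ADH1, the main fermentative alcohol dehydrogenase gene, had 231, 3388, 924 and 4938, 21.4-fold above WT (18.8 to 24.4), and ADH2, for the enzyme that oxidises ethanol, had 13, 13.3, 16.9 and 152. At ADH2 the single changes gave values near that of WT. In the gluconeogenesis and glyoxylate group (2 higher, 9 lower of 13), ICL1, the isocitrate lyase gene, had 114, 4809, 204 and 2532, while PCK1, for the gateway enzyme of gluconeogenesis, had 65, 4.13, 11.6 and 6.10. Of 16 tricarboxylic acid cycle genes, 12 were lower and 1 higher (-0.60), and the aconitase gene ACO1 had 621 in WT and 16.2 in xrn1 RNAi.

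Nuclear genes of the mitochondrial ATP synthase were 7 lower and 2 higher of 14. The lowest were ATP2, ATP3 (435 in WT, 4.73 in xrn1 RNAi) and ATP4 (198 and 1.22), while ATP1, for the alpha subunit, had 239 and 87.3. Nuclear respiratory chain genes were 12 lower and 6 higher of 22. NDE1, an NADH dehydrogenase gene, had 1043 in WT and 22 in xrn1 RNAi. In contrast, the cytochrome oxidase subunit gene COX5B had 7, 62.2, 34.0 and 146 in WT, RNAi, xrn1 and xrn1 RNAi, and the cytochrome c gene CYC1 had 17, 38.4, 202 and 265. Of 19 genes of peroxisomal fatty acid oxidation, 3 were higher and 9 lower, with the catalase gene CTA1 at 47, 573, 69.7 and 935.

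The groups of permeases, nutrient uptake and response genes and cell wall proteins below had medians above that of all nuclear genes, with members in both directions. The interval of the relative median excluded 0 for cell wall proteins alone; it included 0 for the others that had enough members for one. Of the 3 ammonium permease genes, MEP3 had 210, 6130, 872 and 8976 in WT, RNAi, xrn1 and xrn1 RNAi (42.7-fold above WT, 37.3 to 49.2), MEP1 had 126, 3125, 349 and 3965 (31.5-fold), and MEP2 had 126, 68.0, 128 and 72.0. Of 21 amino acid permease genes, 5 were higher and 7 lower (relative median 1.01, interval -0.20 to 1.85), and with size factors 12 were higher and 3 lower. TAT1, for a permease of tyrosine and tryptophan, had 271, 4328, 804 and 7825 (28.9-fold, 25.6 to 32.6), and DIP5, for a permease of acidic amino acids, had 60, 689, 229 and 856. AGP2, nearest the group's median, had 29, 153, 24.8 and 28.0, so it was high in RNAi alone.

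Of 13 nucleobase and thiamine permease genes, 7 were higher and 3 lower (relative median 2.30, interval -0.19 to 4.35). FCY2, for a purine and cytosine permease, had 170, 1060, 803 and 4902 (28.8-fold, 24.8 to 33.7), whereas FCY21, a relative of it, had 167, 4819, 154 and 1673 and so was highest in RNAi. In the MCH family, named for likeness to monocarboxylate transporters, 3 of 5 were higher and 1 lower, and next to MCH5 the others were small, such as ESBP6 (49 in WT, 231 in xrn1 RNAi). Of 11 counted hexose transporter genes of 19 in the list, 5 were higher and 4 lower (1.27, interval -1.26 to 3.27). The glucose sensor gene RGT2 had 333, 2631, 183 and 1637, and the other sensor gene, SNF3, had 95, 7.62, 31.4 and 16.7. Of 24 genes of multidrug resistance and its transporters, 8 were higher and 10 lower (0.48, interval -0.77 to 2.25): PDR3, for a transcription factor, had 193, 7073, 444 and 5450, and PDR5, for the main efflux pump, had 708, 56.8, 1287 and 54.1.

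Of 25 iron uptake genes, 9 were higher and 8 lower (relative median 1.65, interval -0.12 to 2.49), and with size factors 15 were higher and 3 lower. FRE7, a metalloreductase gene, had 94, 1828, 230 and 2514 (26.7-fold above WT, 21.8 to 33.1), the iron permease gene FET4 had 249, 5048, 389 and 3810, and the oxidase gene FET3 had 243, 4016, 362 and 1930. In FET4 and FET3 RNAi was above xrn1 RNAi. Of 18 phosphate response genes, 7 were higher and 6 lower (1.20, interval -0.68 to 2.62): the acid phosphatase genes PHO3 (48, 287, 201 and 1217) and PHO5 (34, 517, 99.8 and 596) were higher, and PHO81, for a kinase inhibitor of the pathway, was lower (512, 21.6, 354 and 37.0). Of 10 galactose genes, 4 were higher and 3 lower (0.88, interval -0.50 to 4.31). GAL4, for the activator of the pathway, had 55 in WT and 676 in xrn1 RNAi, and GAL7 had 14 reads in WT and 1 in xrn1 RNAi.

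Of 40 counted cell wall protein genes, 17 were higher and 10 lower (relative median 1.30, interval 0.67 to 3.30), and with size factors 24 were higher and 6 lower. After HPF1, the mannoprotein gene CWP1 had 15, 32.4, 293 and 508 in WT, RNAi, xrn1 and xrn1 RNAi (33.8-fold, 20.5 to 60.5). TIP1, for another mannoprotein, had 8, 154, 33.7 and 277. CWP1 thus had its high values in the libraries without XRN1, and HPF1 and TIP1 in those with DCR1 and AGO1. Of 8 flocculin genes, 3 were higher and 2 lower (1.67, interval -0.94 to 4.53); FLO5 had 12, 407, 10.6 and 167 and FLO1 had 5, 344, 6.61 and 75.4, and both were highest in RNAi.

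**Figure D4:**
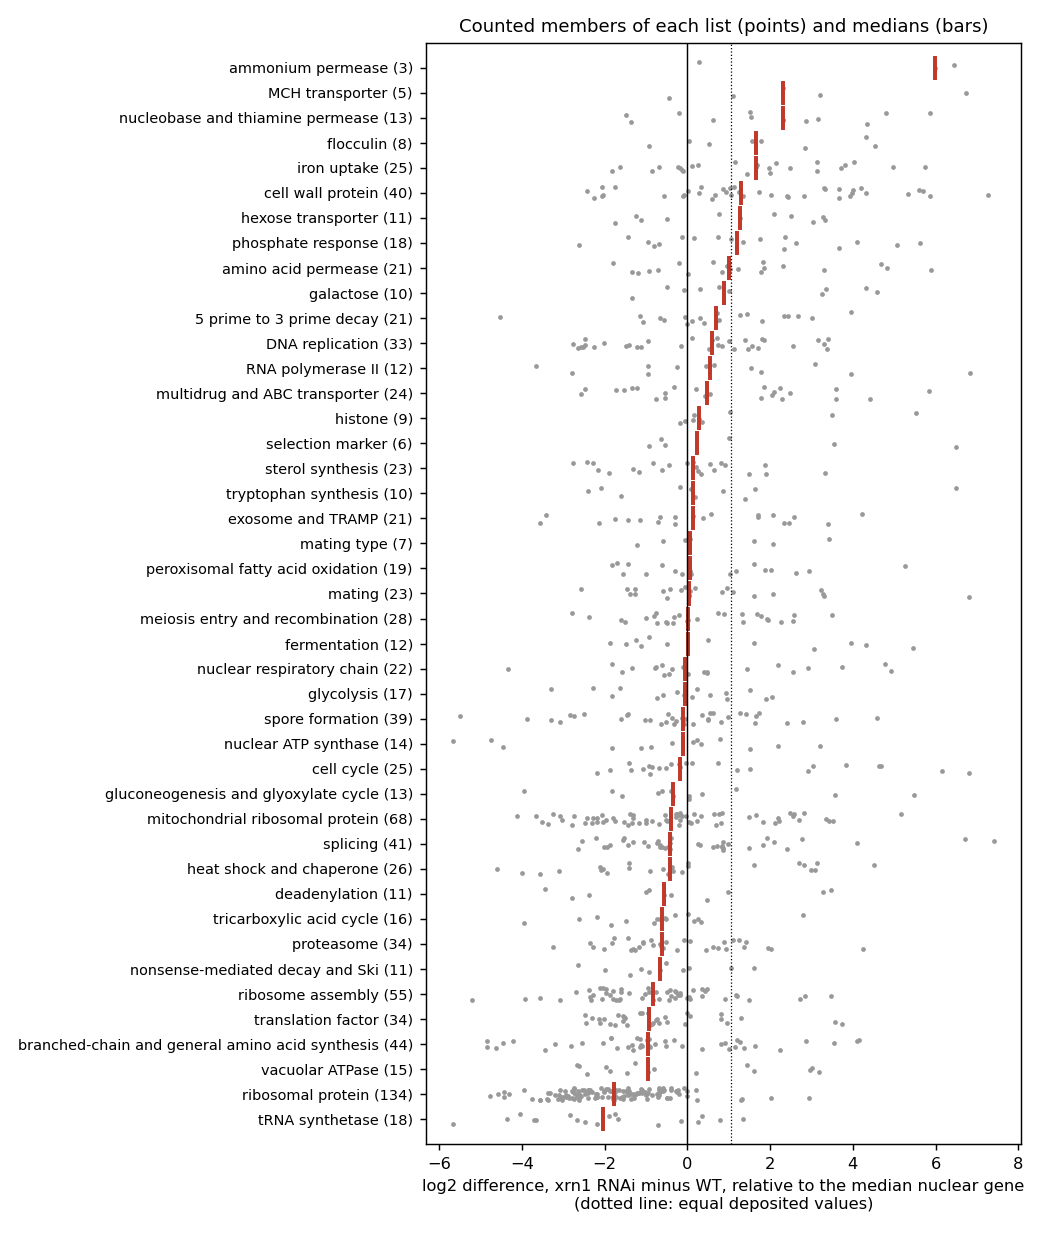
Log2 difference of xrn1 RNAi minus WT relative to the nuclear median for each counted member (points) and the group median (bars) of 43 gene groups, with the number of counted members in brackets. Ammonium permease genes lie farthest to the right at 5.99 and cell wall protein genes at 1.30, vacuolar ATPase genes lie to the left at -0.96, and tRNA synthetase and ribosomal protein genes farthest to the left at -2.04 and -1.79.

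Genes of RNA turnover did not move as one group. Of 21 genes of decapping and 5′ to 3′ decay, XRN1 itself among them, 5 were higher and 7 lower (relative median 0.68). LSM1, for a decapping activator, had 11, 36.2, 79.6 and 103 in WT, RNAi, xrn1 and xrn1 RNAi, and PAT1, for its partner, had 46, 10.5, 130 and 7.47. Of 11 genes of nonsense-mediated decay and the Ski complex, 9 were lower and 0 higher (-0.67), among them NAM7 (250 in WT, 27.7 in xrn1 RNAi), for the helicase Upf1. Of 11 deadenylation genes, 7 were lower and 2 higher, and PAN2, for a deadenylase subunit, had 161 and 4.12. Of 21 genes of the exosome and its cofactors, 10 were lower and 6 higher, and the nuclease gene DIS3 had 281, 24.5, 155 and 8.46.

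Of 41 splicing genes, 22 were lower and 6 higher, so SMD1 and PRP38 were not typical of them; the helicase gene PRP43 had 85 in WT and 3.66 in xrn1 RNAi. Of 12 RNA polymerase II subunit genes, 3 were higher and 5 lower: next to RPB4, the large subunit genes RPO21 (423 in WT, 26.5 in xrn1 RNAi) and RPB2 (496 and 15.9) were lower. Of 9 histone genes, 2 were higher and 2 lower. HTZ1, the gene of the H2A.Z variant, had 22, 138, 69.7 and 555, and HHT2, a histone H3 gene, had 15, 16.2, 202 and 96.6. Of 25 cell cycle genes, 7 were higher and 14 lower, with the cyclin genes CLB6 (7, 20.3, 59.8 and 350) and CLN2 (35, 216, 294 and 470) higher. Of 33 DNA replication genes, 5 were higher and 14 lower, with POL1, for the catalytic subunit of DNA polymerase alpha, at 288 in WT and 17.5 in xrn1 RNAi.

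In xrn1 RNAi over WT, genes of sexual development had medians close to that of all nuclear genes. All 39 spore formation genes reached the level to be counted in WT, but only 21 did in xrn1 RNAi. For meiotic genes the numbers were 28 and 19, and for mating genes 22 and 22. Of 5775 nuclear genes, 810 were under that level in xrn1 RNAi. The value added before taking logarithms shrinks differences at such low levels. In xrn1 over WT, medians minus the nuclear median of that comparison were -1.79 (spore formation), -1.40 (meiotic) and -0.43 (mating). Of 39 spore formation genes, 4 were higher and 22 lower. AMA1, for a meiotic activator of protein degradation, had 110, 1.27, 4.96 and 0.534 in WT, RNAi, xrn1 and xrn1 RNAi, and SPR3, a septin gene of sporulation, had 77, 0.635, 2.31 and 0.762. At AMA1 and SPR3, as at SPO19, all 3 altered strains were far below WT. Of 28 genes of meiotic entry and recombination, 4 were higher and 15 lower, with MSH5 at 71, 9.84, 37.3 and 1.98 and the cohesin gene REC8 at 48, 2.22, 5.62 and 1.6. Of 23 mating genes, 5 were higher and 12 lower, with FAR1 at the top and the cell fusion gene FUS2 at 45, 1.59, 10.2 and 0.762. Of 23 sterol synthesis genes, 1 was higher and 11 lower (relative median 0.14, interval -1.18 to 0.65), with ERG27 at 466 in WT and 30.3 in xrn1 RNAi.

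Marker genes describe the strains further. Among genes used as selection markers, TRP1 had 123, 5964, 452 and 5452 in WT, RNAi, xrn1 and xrn1 RNAi, and HIS3 had 66, 65.4, 89.5 and 386, high in the combined strain alone. URA3 had 1 read in WT and a value of 2.74 in xrn1 RNAi. LEU2 (42 and 11.7), LYS2 (297 and 73.4) and ADE2 (80 and 22.6) were lower, and MET17 had 28 and 27.1. Of the other 9 tryptophan pathway genes counted, none was 2-fold higher, and ARO1 (261 and 20.9) and TRP5 (97 and 8.16) were among those lower. Of 10 mating-type genes, 7 were counted, with 2 higher and 3 lower, and not all are printed here. Of those printed, the genes of alpha cells had reads in WT, with 132 for SAG1, 112 for STE3 and 49 for MF(ALPHA)1. The printed genes of a cells had few or none, with 12 for STE2, 3 for MFA1, 2 for MFA2 and 0 for AGA2. All 10 mating-type genes together had 493 reads in WT, so those not printed held reads too. The printed genes alone therefore do not settle the cell type. In xrn1 RNAi the values were 697 for SAG1, 34.1 for STE3, 21.2 for MF(ALPHA)1 and 4.50 for STE2, with 0 reads for MFA1 and 1 for MFA2. Which markers were used to build the strains was not tested.

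For genes that face a neighbour with their 3′ end, the share of higher genes varied with the gap. Within 200 bases or overlapping, 276 of 1263 counted genes were higher (21.9%, interval 19.6 to 24.2%), near the 20.6% of all counted nuclear genes. Within that class, where the coding ends overlapped, 14 of 27 counted genes were higher (51.9%, interval 31.9 to 71.3%), and where they lay 0 to 100 bases apart, 97 of 342 (28.4%, 23.6 to 33.5%). Over 100 and up to 200 bases 18.5% were higher, over 200 and up to 500 bases 16.1%, and above 500 bases 19.3%. With size factors the shares were 58.6% for overlaps and 45.3% for 0 to 100 bases, against 33.9%. For genes that instead face the start of a neighbour on the same strand, 2 of 9 were higher where they overlapped and 9 of 30 at 0 to 100 bases (interval 14.7 to 49.4%), so few that they cannot be told apart from the facing genes. At 0 to 100 bases from a facing neighbour, 15.3% of genes were higher in RNAi than in WT, which is the background of that comparison (15.3%), and 31.5% were higher in xrn1 than in WT, near its 33.3%. Where the coding ends overlapped, 29.6% were higher in RNAi than in WT and 37.0% in xrn1 than in WT. These shares were not tested against each other or against the background. The genes of a pair are not independent, and the intervals treat them as if they were.

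Taking adjacent genes as pairs, both were higher in 55 of 620 facing pairs at most 200 bases apart or overlapping (8.87%). The share was 4.11% over 200 and up to 500 bases and 3.07% above 500 bases. In same-strand pairs it was 6.08%, 4.65% and 7.26% over the same distances, and in pairs that face away from each other 3.61%, 2.61% and 4.57%. Across the 620 close facing pairs the differences of the 2 genes had a Pearson correlation of 0.34 as a description, with the genes sharing both libraries and possibly reads; it was 0.10 in close same-strand and in close diverging pairs. In the 13 overlapping facing pairs, both were higher in 6 and both lower in 3.

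**Figure D5:**
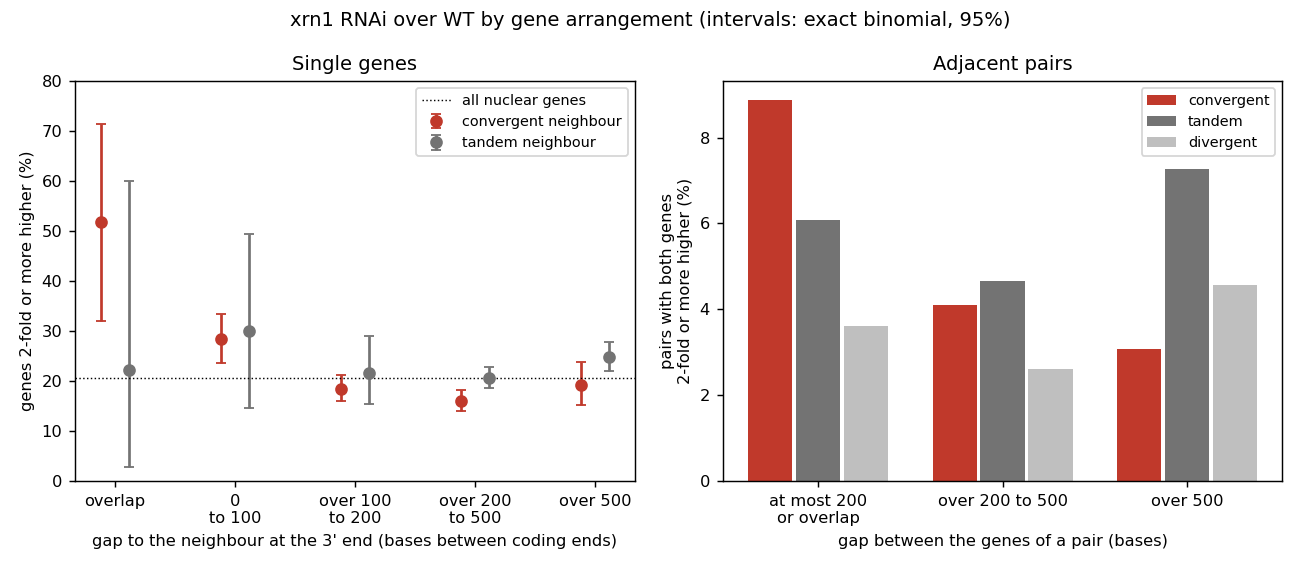
Left, percent of counted nuclear genes 2-fold or more higher in xrn1 RNAi than in WT by the gap to the neighbour at the 3′ end, for facing (convergent) and same-strand (tandem) neighbours, with 95% Clopper-Pearson intervals. Right, percent of adjacent pairs with both genes higher, by arrangement and gap; overlapping convergent genes stand at 51.9% and close convergent pairs at 8.87%.

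The pairs with short overlaps differed in size. SMD1 and PRP38 had the highest mean difference of the close facing pairs named here. TAD3, a tRNA deaminase gene, had 64, 402, 279 and 1970 in WT, RNAi, xrn1 and xrn1 RNAi, while its partner NKP2, a kinetochore gene, had 8, 11.8, 15.2 and 24.6. RAD10, a DNA repair nuclease gene, had 14, 27.6, 60.8 and 403, and YML096W, annotated as a putative asparagine synthase, had 37, 196, 125 and 917. VPS75, a histone chaperone gene, had 43, 687, 202 and 1897, and CWC25, a splicing factor gene, had 155, 192, 72.0 and 470. CTF19, for a kinetochore protein, had 48, 523, 130 and 698, and IRC15 had 65, 945, 94.2 and 1142. VPS38, a vacuolar protein sorting gene, had 64, 116, 54.5 and 170, and DCR2, a yeast phosphatase gene and no Dicer, had 40, 222, 79.96 and 279. ATG29, an autophagy gene, had 14, 5.08, 44.9 and 17.6, within 2-fold of WT in xrn1 RNAi. SET6 had 25, 4.76, 6.61 and 10.3 and was lower in xrn1 RNAi (log2 difference -1.07).

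Split by the length of the shared stretch, a split chosen after the values were seen, both genes were higher in 6 of the 7 pairs that overlap by 35 bases or less and in 0 of the 6 that overlap by 181 to 808 bases. Among the longer overlaps both genes were lower in 3. HEM14, a heme synthesis gene that overlaps BUD25, had 140 in WT and 1.98 in xrn1 RNAi, and BUD25 had 19 and 7.24. ARE1, a sterol acyltransferase gene that overlaps YCR050C, had 103 and 8.77, and YCR050C had 78 and 2.21.

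Of the 8 facing pairs with the highest mean differences, SMD1 with PRP38, YML096W with RAD10, and CTF19 with IRC15 overlap, and the others lie 38 to 154 bases apart. Their 16 genes were 8.81-fold to 101-fold higher. In 15 of them xrn1 RNAi was the highest of the 4 libraries, which the choice of pairs by their difference favours. CHL4, a kinetochore gene, had 31, 684, 114 and 1196, and RMD5, a ubiquitin ligase gene 67 bases away, had 25, 529, 112 and 1239, so that the values of both genes ran side by side in all 4 libraries. PEX29, a peroxisome gene, had 83, 570, 232 and 2339, and SNM1, for a subunit of RNase MRP 38 bases away, had 16, 30.8, 48.6 and 213. AMD2, a putative amidase gene, was the exception with 54, 1801, 158 and 1590. Of the 12 genes with the highest differences, 7 faced their 3′ neighbour and 4 did so within 200 bases or overlapped it; of all nuclear genes 51.7% and 22.5% did. FAR1, HPF1, INH1 and ARO10 had no facing neighbour within 200 bases.

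Gene length and level went with the share of higher genes too. In 4 equal classes of coding length from short to long, 25.5%, 24.2%, 19.97% and 13.3% of counted nuclear genes were higher, and 42.6%, 45.7%, 51.6% and 63.1% were lower. In RNAi over WT the order ran the other way, with 10.8%, 14.4%, 15.8% and 19.4% higher from short to long. In xrn1 over WT the shares were 57.3%, 39.1%, 28.8% and 10.9%. In 5 equal classes of the value per kb of coding length in xrn1, from low to high, 15.8%, 16.4%, 19.9%, 24.6% and 24.98% were higher. The shares of lower genes in these classes had no steady trend (53.8%, 52.0%, 52.7%, 45.1% and 52.0%). Genes with an intron outside the ribosomal protein group were close to the background at 21.8%. By chromosome, the share of higher genes ran from 12.1% on VI to 24.5% on V. Within 20 kb of the first base of a chromosome or of its last listed gene end, 38 of 108 counted genes were higher (35.2%, 26.2 to 45.0%). Only 108 of 243 genes there reached the level to be counted. The part of length and level in the shares by arrangement was not tested.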

How the data were processed

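Small RNA of 10 to 40 nucleotides was sequenced from 4 strains, with 1 library each. Cutadapt and Bowtie are named in the submitters' processing notes; versions, genome build, annotation, strand treatment and the rule of scaling were not given in the sources used here. The deposited WT column holds a count of reads per gene. The other 3 deposited columns hold a signal per gene that equals whole reads times 1 factor per library (100% of values whole to a tolerance of 1e-06), and reads were recovered by division. Identifiers were matched to RefSeq R64 (5789 of 5798) for symbols, coordinates, sequences and neighbours. The pseudocount of 3.18 is the 10th percentile of non-zero values.

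Named genes were XRN1, the 12 highest and 12 lowest differences among nuclear genes of value 31.8 or more, the 8 highest per kb in each library, the 5 smallest differences, the 3 largest differences and the gene nearest the median of each list, all marker genes, mitochondrial protein genes, R00 identifiers and 8 convergent pairs. Members and lists were chosen with earlier results of these data known. Of these, not all are printed. Python 3.11.15, pandas 2.3.3, scipy 1.17.1 and, for a count test of an additive model, edgeR 4.0.16 in R 4.3.3 were used, tested on simulated data. The alternatives were other pseudocounts, filters, scalings, thresholds and gaps, and that count test.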

Additional observations from a re-analysis of the deposited data

How the results depend on the processing

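The median nuclear difference of -1.05 was -1.21 with a pseudocount of 0.318, -0.44 with 10 times the pseudocount, -0.91 with no filter, -1.16 with a filter at 10 times the pseudocount, -0.97 after division by the library sum, -1.33 after division by the nuclear sum and -0.067 with size factors. The 1128 higher and 2818 lower identifiers became 1867 and 1775 with size factors and 611 and 1636 at 4-fold, and 1610 were lower with 10 times the pseudocount. An edgeR quasi-likelihood test of an additive model over all 4 libraries called 686 higher and 453 lower at an adjusted p under 0.05; it has 1 residual degree of freedom and takes the effects of both changes to add up. That test used its own normalization of the reads and not the deposited scale. The share of higher genes among those facing a neighbour within 200 bases, 21.9% against a background of 20.6%, was 15.3% with 10 times the pseudocount, 26.8% with the stricter filter, 17.4% after division by the nuclear sum, 37.1% with size factors, 30.1% at a gap of at most 100 bases and 19.0% at 500. The mitochondrial share without nested features was 9.83% in WT and 0.0150% in xrn1 RNAi. All 199 named genes past 2-fold kept their sign under each alternative pseudocount, filter and scaling, but many of them were chosen for a large difference. Sizes depended more on the processing. Of all 227 named genes, 188 moved beyond counting error with size factors and 176 with 10 times the pseudocount. Division by the nuclear sum moved 71, and a pseudocount of 0.318 moved 59. Of the 43 list medians relative to the nuclear median, 30 kept theirs; those near 0, such as glycolysis, meiosis, mating, sterol, spore formation and exosome genes, did not. No paired analysis was possible because each genotype has 1 library. Depth limits genes with few reads in WT, the shallowest library, and no setting replaces replicates.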
